A study of Mus musculus with 40 samples.

Results

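The Fos and Jun genes, which encode the AP-1 transcription factors, were followed through 10 groups of cultured mouse oligodendrocyte-lineage cells. The members are the rows of the gene count table for Fos (ENSMUSG00000021250.13, chromosome 12), Fosb (ENSMUSG00000003545.3, chromosome 7), Fosl1 (ENSMUSG00000024912.5, chromosome 19), Fosl2 (ENSMUSG00000029135.10, chromosome 5), Jun (ENSMUSG00000052684.4, chromosome 4), Junb (ENSMUSG00000052837.6, chromosome 8) and Jund (ENSMUSG00000071076.6, chromosome 8). They are 7 of 39056 gene identifiers, and were chosen by family, with earlier results of these data known. The filter on low counts passed 6 of the 7 among 15135 genes tested, and Fosl1 did not pass it.

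All groups were wild-type C57BL/6 cells labelled developing oligodendrocytes. Progenitors were immunopanned from the cortices of mouse pups of about 6 days, expanded over 2 passages and left to differentiate overnight, and plates were then randomly assigned. The groups were thapsigargin at 1 and 8 h (200 uM as the labels state it), IFN-gamma at 1, 8, 24 and 48 h (200 U/ml), and untreated cells at 1, 8, 24 and 48 h, with 4 bulk RNA-seq libraries in each and 40 in all. Thapsigargin blocks the calcium pump of the endoplasmic reticulum (ER) and is used to provoke ER stress, and IFN-gamma is a cytokine of activated T cells. The labels do not say whether the 4 libraries of a group came from separate cultures or animals, so what the p-values reflect is the spread of these libraries alone, which may in part be technical. Y-linked or Xist levels, given below, differed between libraries within every group, so the 4 libraries of a group were not all repeats of 1 source.

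AP-1 is a dimer of basic leucine zipper proteins. Jun proteins pair with each other or with Fos proteins, whereas Fos proteins need a Jun partner, and the dimers bind a short palindromic DNA site in the control regions of many genes. Fos, Fosb, Jun and Junb are classical immediate early genes, whose transcription starts within minutes of a calcium, growth factor or stress signal. Fosl1 and Fosl2 (the Fra genes) usually follow later, and Jund is made in most resting cells. The Jun protein is a target of the JNK kinases and can act on its own promoter.

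The sequence just before the transcription start is shown for the 3 members whose highest group was thapsigargin at 1 h (Fos, Fosb and Junb), and for Jun, whose highest groups were IFN-gamma from 8 h on. The 150 bases that end at the base before the start are from RefSeq on GRCm38.p6, on the strand of the gene, with capitals for TGACG (the half-site of a cAMP response element, CRE) or TGACATCA (an AP-1-like site known from the Jun promoter).
Fos, chr12:85473740-85473889, plus strand: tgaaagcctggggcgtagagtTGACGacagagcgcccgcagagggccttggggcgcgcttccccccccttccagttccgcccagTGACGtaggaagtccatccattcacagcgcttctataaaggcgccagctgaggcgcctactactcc
Fosb, chr7:19310046-19310195, minus strand: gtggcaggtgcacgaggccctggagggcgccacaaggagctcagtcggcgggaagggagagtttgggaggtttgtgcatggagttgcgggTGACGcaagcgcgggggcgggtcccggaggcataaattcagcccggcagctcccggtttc
Junb, chr8:84978749-84978898, minus strand: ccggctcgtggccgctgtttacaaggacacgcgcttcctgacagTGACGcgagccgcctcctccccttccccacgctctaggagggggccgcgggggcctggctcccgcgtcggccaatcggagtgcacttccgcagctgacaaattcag
Jun, chr4:95052223-95052372, minus strand: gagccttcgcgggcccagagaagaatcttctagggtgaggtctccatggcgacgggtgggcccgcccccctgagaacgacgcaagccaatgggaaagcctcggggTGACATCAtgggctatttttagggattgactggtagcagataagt

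RefSeq windows of 250 bases before to 50 after the start were matched by symbol for 6 of the 7 members, Fosl1 being the one without. On both strands, none of the 6 windows held the AP-1 site TGANTCA, the full CRE TGACGTCA or the CArG box of serum response factor (SRF). They were present in 7.81%, 1.79% and 1.63% of the 32851 windows of all genes. Bases beyond these windows were not searched, so a motif absent here may lie further upstream. TGACG was found at -129 and -66 in Fos, -60 in Fosb and -106 in Junb, counted from the start to the first base of the match, and in 20.8% of all windows. TGACATCA was found at -45 in Jun and in 3.62% of all windows. Neither TGACG nor TGACATCA was found in the window of Jund, or in that of Fosl2, which was also higher at 1 h of thapsigargin. The RefSeq start of Jund lies upstream of the start of the Jund gene in GENCODE M21, so its window is not at the start of that gene model. The last 2 motifs were chosen after the windows had been read. A match is a description of letters and not of binding, and the AP-1, CRE, half-site and Jun-promoter motifs overlap in their letters.

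The libraries held 13165483 to 22651092 reads on genes. Levels are CPM, the reads of a gene relative to a library size rescaled by edgeR's TMM method, and fold changes are on the log2 scale, from the edgeR quasi-likelihood test with Benjamini-Hochberg (BH) adjustment over all genes tested. The 8 oligodendrocyte lineage markers summed to 2712 to 13839 CPM per library. The 7 astrocyte markers summed to 95.9 to 387 CPM and 7 neuron markers to 68.8 to 368 CPM. Sums were 1.17 to 4.37 CPM for 8 microglia and macrophage, 0.295 to 11.04 CPM for 6 endothelial and mural and 0.123 to 10.01 CPM for 6 fibroblast markers. The treatments were visible in their usual genes: Ddit3, the ER stress factor CHOP, was at 559 ± 27.3 against 6.47 ± 1.05 CPM in thapsigargin and untreated cells at 8 h, and Irf1, a transcription factor of the interferon response, at 632 ± 182 against 25.5 ± 1.17 CPM in IFN-gamma and untreated cells at 1 h (SD, n = 4 each). The ER chaperone gene Hspa5 was higher by 3.96 ± 0.07 on the log2 scale at 8 h of thapsigargin (SE). The summed level of 3 Y-linked genes was at most 20.6 CPM in 10 libraries, which were 2 in every IFN-gamma group and thapsigargin replicate 2 at both times, and at least 100 CPM in the other 30. No untreated library was thus low, but Xist, an RNA of female cells, differed between untreated libraries. It ranged from 0 to 183 CPM at 1 h, 0 to 180 CPM at 8 h, 0.805 to 149 CPM at 24 h and 0.184 to 157 CPM at 48 h. In IFN-gamma 1 h replicate 2, ribosomal-RNA-like features took 24.3% of the reads; the other libraries gave them at most 8.42%. Replicates 1 and 2 carry library numbers up to 20 and replicates 3 and 4 numbers from 21, which the labels do not call batches. Bulk libraries cannot tell fewer cells of a type from less RNA per cell.

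Summed over the 7 members and set per kilobase of exon, the family was at its highest in thapsigargin cells at 1 h, with 419.7 ± 67.2 CPM per kilobase (mean ± SD, n = 4), against 178 ± 33.95 in untreated cells at 1 h. At 8 h the sum was 122 ± 28.8 in thapsigargin cells, 218 ± 18.7 in IFN-gamma cells and 102 ± 6.96 in untreated cells. IFN-gamma cells then held 187 ± 30.9 at 24 h and 157 ± 26.9 at 48 h, against 85.1 ± 8.34 and 71.8 ± 7.09 in untreated cells. The libraries of IFN-gamma and untreated cells did not overlap in this sum at 8, 24 or 48 h, and at 1 h they did.

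Which members made up the sum differed between the groups. Fos provided 61.7 ± 7.97% of it in thapsigargin cells at 1 h, against 39.5 ± 4.17% in untreated cells (share of CPM per kilobase, SD, n = 4). At 8 h Jund provided 34.997 ± 6.87% in thapsigargin cells, against 14.7 ± 0.900% in untreated cells, and Fos 30.8 ± 5.61%, against 51.9 ± 3.01%. Jund was above Fos in thapsigargin replicates 1 and 2 and below it in replicates 3 and 4. Jun was 68.2 ± 2.26% of the sum in IFN-gamma cells at 48 h, against 18.95 ± 2.98% in untreated cells, whose largest share was Fos at 53.8 ± 6.90%. Fosb, Fosl1 and Fosl2 together were minor in every group: the highest mean share of Fosl2 was 4.70 ± 0.766%, in thapsigargin cells at 8 h, that of Fosb 0.326 ± 0.0714%, in thapsigargin cells at 1 h, and that of Fosl1 0.142 ± 0.0365%, in thapsigargin cells at 8 h.

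**Figure D1:**
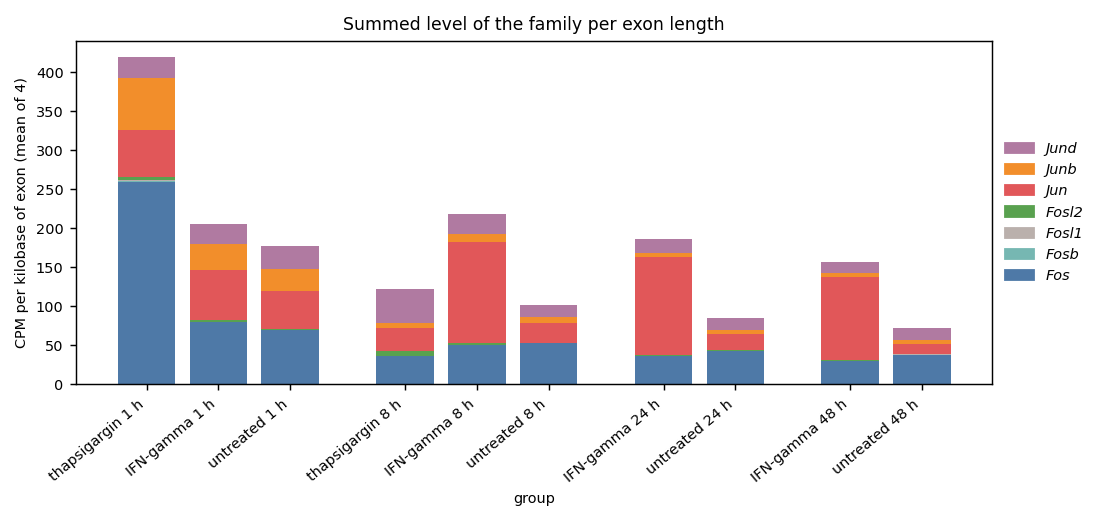
Mean level of each family member in CPM per kilobase of exon (vertical axis, from 0), stacked for the 10 groups (horizontal axis, 4 libraries each). The stack is tallest in thapsigargin cells at 1 h, and in IFN-gamma cells from 8 h on Jun is its largest part.

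The first comparison asks how the family responded within 1 h of thapsigargin. Fos, Fosb, Fosl2 and Junb were higher than in untreated cells, and Jun and Jund were not called. Thus 4 of the 6 members tested were higher and 0 lower, where 6.61% of all genes tested were higher and 2.18% lower, and the median log2 fold change was 1.31 over the 6 members and -0.02 over all genes.

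Fos was at 479.8, 535, 809.6 and 621 CPM in the 4 thapsigargin libraries and at 186, 167, 153 and 146 CPM in the 4 untreated libraries. The lowest treated library was far above the highest untreated one, and the log2 fold change was 1.91 ± 0.10 (SE; BH-adjusted p = 4.25e-15). Fosb, whose truncated splice form lacks the transactivating end of the protein, was at 6.38, 6.96, 12.95 and 8.34 CPM in thapsigargin cells and 1.17, 0.136, 0.360 and 0.421 CPM in untreated cells. The groups did not overlap, and its log2 fold change of 3.99 ± 0.33 (SE; BH-adjusted p = 1.07e-10) was the largest of the family, but untreated cells held only 27, 3, 6 and 7 Fosb reads. The highest of these, replicate 1, weighs on the value, which was 4.86 (adjusted p = 4.14e-12) without it. DESeq2 gave no adjusted p for Fosb in this comparison.

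Fosl2, which encodes Fra-2, was at 36.4, 29.8, 28.2 and 57.5 CPM in thapsigargin libraries and 13.9, 14.8, 14.7 and 14.97 CPM in untreated libraries. All 4 treated values were above all 4 untreated ones, which were close together, and the log2 fold change was 1.38 ± 0.23 (SE; BH-adjusted p = 6.63e-05). Junb, a Jun protein with weaker transactivation than Jun, was at 164, 103, 134 and 209 CPM in thapsigargin cells and 93.1, 78.6, 47.7 and 37.6 CPM in untreated cells. The groups stood apart with a log2 fold change of 1.24 ± 0.31 (SE; BH-adjusted p = 0.00659), but untreated replicates 3 and 4 were well below replicates 1 and 2. Among library numbers up to 20 alone the value was 0.62 (adjusted p = 0.388), which ends the call, and from 21 on it was 2.02 (adjusted p = 0.00692).

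Jun was at 216, 162, 169 and 227 CPM in thapsigargin libraries and 172, 185, 146 and 123 CPM in untreated libraries, and Jund at 51.4, 32.97, 39.7 and 57.6 CPM against 58.1, 62.9, 44.2 and 34.3 CPM. Both overlapped between the groups, with log2 fold changes of 0.31 ± 0.16 (SE; BH-adjusted p = 0.282) for Jun and -0.14 ± 0.30 (SE; BH-adjusted p = 0.857) for Jund.

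**Figure D2:**
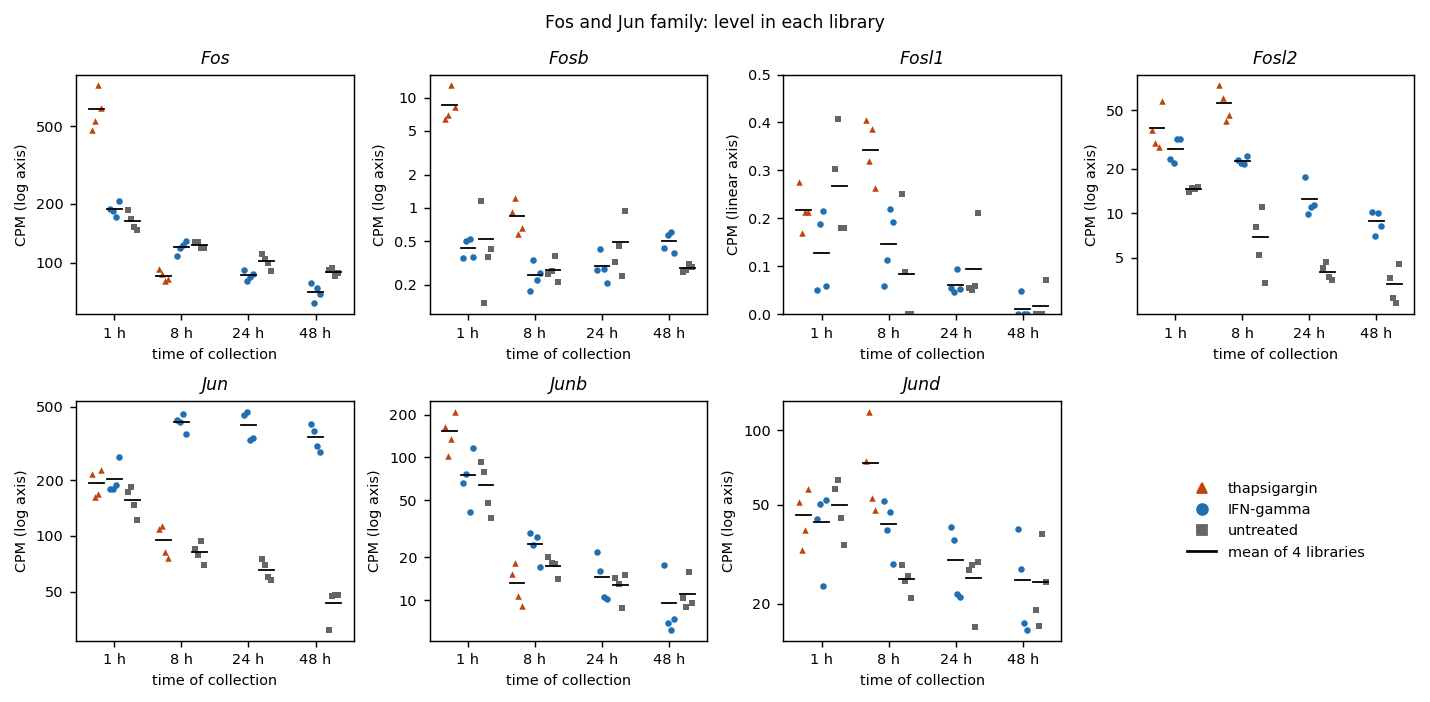
CPM of each member in every library (points; log axis, linear for Fosl1) by time of collection, with thapsigargin, IFN-gamma and untreated libraries from left to right at each time and lines at the means of 4 libraries. Fos, Fosb and Junb are highest in thapsigargin cells at 1 h, Fosl2 and Jund in thapsigargin cells at 8 h, and Jun in IFN-gamma cells from 8 h on.

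By 8 h of thapsigargin the members that were raised had changed. Fosl2, Jund and Fosb were higher than in untreated cells and Fos was lower, so 3 of 6 members were higher and 1 lower, where 29.6% of all genes were higher and 31% lower. The median log2 fold change was 0.89 over the members and -0.01 over all genes.

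Fosl2 was at 73.4, 60.2, 41.9 and 46.1 CPM in thapsigargin libraries and 8.06, 5.24, 10.98 and 3.36 CPM in untreated libraries. The lowest treated library was above the highest untreated one, and the log2 fold change was 3.01 ± 0.25 (SE; BH-adjusted p = 8.93e-13). Jund, the member usually made in resting cells, was at 75.1, 118, 53.4 and 47.8 CPM in thapsigargin cells and 28.6, 24.6, 25.8 and 21.1 CPM in untreated cells. The groups did not overlap although the treated libraries spread widely, and the log2 fold change was 1.56 ± 0.31 (SE; BH-adjusted p = 5.83e-05). Fosb remained above untreated cells at a low level, with 0.910, 1.23, 0.579 and 0.656 CPM against 0.250, 0.266, 0.368 and 0.214 CPM and a log2 fold change of 1.63 ± 0.44 (SE; BH-adjusted p = 0.00178). That call rests on 18, 23, 9 and 10 reads in the treated libraries, and it was lost when the isoform table was summed per gene, at 0.98 (adjusted p = 0.0712), and among library numbers from 21 on, at 1.10 (adjusted p = 0.171).

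Fos was at 93.1, 87.2, 80.3 and 82.8 CPM in thapsigargin libraries and 128, 128, 119 and 119 CPM in untreated libraries. Every treated library lay below every untreated one, with a log2 fold change of -0.53 ± 0.10 (SE; BH-adjusted p = 3.34e-05). Junb was at 15.3, 18.1, 10.7 and 9.12 CPM against 19.9, 18.1, 17.9 and 13.99 CPM, a log2 fold change of -0.39 ± 0.33 (SE; BH-adjusted p = 0.320), and Jun at 109.6, 113, 82.3 and 76.3 CPM against 84.997, 78.8, 93.7 and 69.96 CPM, a log2 fold change of 0.22 ± 0.16 (SE; BH-adjusted p = 0.257). Both overlapped between thapsigargin and untreated cells. Jun was called only among library numbers up to 20, where its log2 fold change was 0.42 (adjusted p = 0.0364). At this time the oligodendrocyte lineage markers summed to 2712 to 3092 CPM in thapsigargin libraries and 6057 to 6493 CPM in untreated libraries, the astrocyte markers to 95.9 to 107 against 204 to 277 CPM and the neuron markers to 192 to 209.7 against 72.9 to 82.6 CPM, and the part of this shift in the AP-1 values was not tested.

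The difference between the thapsigargin effects at 8 h and at 1 h was tested as an interaction, and 5 of the 6 members differed. The effect was greater at 8 h for 2 members, Fosl2 (1.63 ± 0.33 SE; BH-adjusted p = 1.07e-04) and Jund (1.70 ± 0.44 SE; BH-adjusted p = 0.00157), and smaller for 3, Fos (-2.43 ± 0.15 SE; BH-adjusted p = 4.06e-16), Fosb (-2.36 ± 0.60 SE; BH-adjusted p = 0.00149) and Junb (-1.64 ± 0.45 SE; BH-adjusted p = 0.00293). Of all genes, 22.7% had a greater and 24.8% a smaller effect at 8 h. That of Jun was -0.09 ± 0.23 (SE; BH-adjusted p = 0.785). The differences for Fosb and Junb were not called among library numbers up to 20, at -1.31 (adjusted p = 0.269) and -0.83 (adjusted p = 0.157), nor those for Fosl2 and Jund from 21 on, at 1.11 (adjusted p = 0.102) and 0.82 (adjusted p = 0.221). Without untreated 1 h replicate 1 the Fosb difference was -3.20 (adjusted p = 1.75e-05).

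The IFN-gamma comparisons ask the same of the cytokine over 48 h. One hour of IFN-gamma left 5 of the 6 members within the test's threshold: 1 member was higher and 0 were lower, where 1.08% of all genes were higher and 0.211% lower. The member called was Fosl2, at 23.4, 21.9, 31.95 and 31.6 CPM in IFN-gamma libraries and 13.9, 14.8, 14.7 and 14.97 CPM in untreated libraries. The groups did not overlap, and the log2 fold change was 0.90 ± 0.23 (SE; BH-adjusted p = 0.0319). Its call was lost, with log2 fold changes of 0.64 to 1.11 over all settings, with the Y-linked level as a covariate (adjusted p = 0.0810), within each range of library numbers (adjusted p = 0.261 and 0.302), among the 30 libraries of high Y-linked level, and without IFN-gamma replicate 3 or 4 or any 1 of the 4 untreated libraries (adjusted p = 0.0663 to 0.113).

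Jun at 1 h was 179, 180.1, 188 and 267 CPM in IFN-gamma libraries and 172, 185, 146 and 123 CPM in untreated libraries, with a log2 fold change of 0.37 ± 0.16 (SE; BH-adjusted p = 0.383). The groups overlapped, and replicate 4 of IFN-gamma stood above the others. Fos was at 189, 185, 172 and 207 CPM against 186, 167, 153 and 146 CPM, a log2 fold change of 0.21 ± 0.10 (SE; BH-adjusted p = 0.474). Neither Fosb (-0.31 ± 0.42 SE; BH-adjusted p = 0.899), Junb (0.23 ± 0.30 SE; BH-adjusted p = 0.893) nor Jund (-0.24 ± 0.31 SE; BH-adjusted p = 0.888) was called, and IFN-gamma and untreated libraries overlapped for each.

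From 8 h on Jun was the member with the largest difference. At 8 h it was at 422, 416, 458 and 355 CPM in IFN-gamma libraries and 84.997, 78.8, 93.7 and 69.96 CPM in untreated libraries, 5.04-fold higher, with a log2 fold change of 2.33 ± 0.17 (SE; BH-adjusted p = 1.10e-13). At 24 h it was at 451, 470.1, 332 and 339 CPM in IFN-gamma libraries and 74.9, 69.5, 60.1 and 57.6 CPM in untreated libraries, a log2 fold change of 2.60 ± 0.17 (SE; BH-adjusted p = 7.37e-15). At 48 h it was at 405, 369, 307 and 285 CPM in IFN-gamma libraries and 31.1, 47.2, 47.9 and 47.9 CPM in untreated libraries, a log2 fold change of 2.97 ± 0.18 (SE; BH-adjusted p = 2.79e-16). At all 3 times every IFN-gamma library was above every untreated one, and above every library of the 1 h groups as well. The mean in IFN-gamma cells was 203 ± 42.5, 413 ± 42.9, 398 ± 72.7 and 341 ± 55.3 CPM at 1, 8, 24 and 48 h (SD, n = 4), so the log2 fold change was larger at 48 h than at 8 h while the level in IFN-gamma cells was lower, and untreated cells had fallen in between.

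The Jun calls did not need the libraries of low Y-linked level. Among libraries of high Y-linked level alone its log2 fold change was 2.26 (adjusted p = 7.62e-10) at 8 h, 2.64 (adjusted p = 3.83e-11) at 24 h and 2.92 (adjusted p = 5.64e-12) at 48 h. Within the library numbers up to 20 and from 21 on it was 2.33 and 2.31 at 8 h and 3.31 and 2.65 at 48 h, called in each. Of the marker lists, the neuron sum was 314 to 368 CPM in IFN-gamma libraries and 72.9 to 82.6 CPM in untreated libraries at 8 h, with a read on all 7 markers. The fibroblast sum was 3.90 to 5.97 against 0.214 to 1.07 CPM, with a read on all 6. The endothelial and mural sum was 9.15 to 10.9 against 0.295 to 1.29 CPM, with the endothelial genes Cldn5 and Cdh5 at 0 in the IFN-gamma group, and the microglia and macrophage sum was 3.09 to 4.37 against 1.18 to 2.18 CPM, with Aif1, Csf1r and C1qb at 0. At 24 h the neuron sum was 172 to 236 CPM in IFN-gamma libraries and 68.8 to 76.4 CPM in untreated libraries, the astrocyte sum 321 to 365 against 209 to 245 CPM, the fibroblast sum 5.64 to 8.90 against 0.298 to 3.94 CPM, and the endothelial and mural sum 10.2 to 11.04 against 0.716 to 2.84 CPM. Cldn5 and Cdh5 were again at 0 in the IFN-gamma group. At 48 h the neuron sum was 161 to 222 CPM in IFN-gamma libraries and 78.1 to 91.7 CPM in untreated libraries, the fibroblast sum 8.18 to 10.01 against 0.123 to 1.58 CPM, and the endothelial and mural sum 8.44 to 9.98 against 0.983 to 2.40 CPM, while the astrocyte sums overlapped. The oligodendrocyte lineage sum was 4593 to 4966 against 6057 to 6493 CPM at 8 h, 5195 to 5965 against 6431 to 7044 CPM at 24 h and 5596 to 6267 against 6568 to 13839 CPM at 48 h. The part of these sums in the Jun values was not tested.

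Fosl2 was the other member raised by IFN-gamma at the later times. At 8 h it was at 23.1, 21.8, 21.5 and 24.3 CPM in IFN-gamma libraries and 8.06, 5.24, 10.98 and 3.36 CPM in untreated libraries, a log2 fold change of 1.72 ± 0.25 (SE; BH-adjusted p = 8.49e-07). It was at 17.5, 9.84, 11.1 and 11.3 CPM against 4.23, 4.66, 3.70 and 3.56 CPM at 24 h (1.62 ± 0.26 SE; BH-adjusted p = 9.29e-06) and at 10.2, 7.03, 10.01 and 8.24 CPM against 3.67, 2.67, 2.46 and 4.54 CPM at 48 h (1.43 ± 0.28 SE; BH-adjusted p = 9.10e-05). IFN-gamma and untreated libraries did not overlap at any of these times. Unlike Jun, Fosl2 had a lower mean in IFN-gamma cells at 48 h than at 1 h (8.88 ± 1.52 and 27.2 ± 5.34 CPM), and it stayed above an untreated level that was lower at 48 h than at 1 h.

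Fos was at 78.4, 61.9, 73.8 and 69.4 CPM in IFN-gamma cells at 48 h and at 92.1, 93.5, 85.8 and 88.7 CPM in untreated cells, a log2 fold change of -0.35 ± 0.10 (SE; BH-adjusted p = 0.00768). Every IFN-gamma library was below every untreated one. Among library numbers from 21 on it was not called, at -0.27 (adjusted p = 0.0868). The log2 fold change of Fos was -0.24 ± 0.10 (SE; BH-adjusted p = 0.0826) at 24 h and -0.05 ± 0.10 (SE; BH-adjusted p = 0.787) at 8 h. In a fit on the 2 groups compared alone the 24 h value was called, at -0.25 (adjusted p = 0.0245).

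Jund, at 8 h of IFN-gamma, was at 51.8, 39.6, 46.6 and 28.8 CPM against 28.6, 24.6, 25.8 and 21.1 CPM in untreated cells. The groups did not overlap, yet with a log2 fold change of 0.73 ± 0.31 (SE; BH-adjusted p = 0.0844) it was not called in the fit over all 10 groups. It was called in the fit on those 2 groups alone, at 0.76 (adjusted p = 0.00136), without IFN-gamma replicate 4, at 0.90 (adjusted p = 0.0439), and among library numbers up to 20, at 0.75 (adjusted p = 0.0405). In those numbers it was also called at 48 h, at 0.95 (adjusted p = 0.0151), against 0.04 ± 0.32 (SE; BH-adjusted p = 0.933) over all libraries. Replicates 3 and 4 went the other way at 48 h. Jund was at 16.6 and 15.7 CPM in these IFN-gamma libraries and at 38.3 and 24.4 CPM in these untreated libraries. Over all settings its 48 h log2 fold change ran from -0.94 to 0.95. Junb at 8 h was 0.49 ± 0.32 (SE; BH-adjusted p = 0.293) in the full fit and 0.51 (adjusted p = 0.0166) in the fit on 2 groups.

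Junb and Fosb were not called at any time of IFN-gamma in the full fit. Junb had log2 fold changes of 0.18 ± 0.33 (SE; BH-adjusted p = 0.738) at 24 h and -0.21 ± 0.34 (SE; BH-adjusted p = 0.677) at 48 h. Fosb had log2 fold changes of -0.13 ± 0.55 (SE; BH-adjusted p = 0.899) at 8 h, -0.76 ± 0.45 (SE; BH-adjusted p = 0.236) at 24 h and 0.82 ± 0.47 (SE; BH-adjusted p = 0.179) at 48 h, on 3 to 12 reads per IFN-gamma library and 3 to 22 per untreated library. At 48 h the Fosb values of IFN-gamma and untreated libraries did not overlap although the gene was not called. In counts, 2 of 6 members were higher and 0 lower at 8 h, where 13.1% and 12.1% of all genes were higher and lower. At 24 h 2 were higher and 0 lower, with 12.6% and 10.5% of all genes, and at 48 h 2 were higher and 1 lower, with 16.9% and 19.9%. The median log2 fold change of the 6 members was 0.61, 0.21 and 0.43 at 8, 24 and 48 h, against -0.03, -0.01 and -0.0021 over all genes.

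Tested against the effect at 1 h, the IFN-gamma effect on Jun was greater by 1.96 ± 0.23 (SE; BH-adjusted p = 4.89e-08) at 8 h, 2.23 ± 0.23 (SE; BH-adjusted p = 3.47e-09) at 24 h and 2.60 ± 0.23 (SE; BH-adjusted p = 9.47e-11) at 48 h on the log2 scale. It was the 1 member of 6 with a greater effect at each of these times, where 7.39%, 5.93% and 8.68% of all genes had one. The 48 h value was 3.32 (adjusted p = 3.51e-07) among library numbers up to 20 and 1.89 (adjusted p = 1.19e-04) from 21 on. A smaller effect than at 1 h was found for 0, 1 and 1 members at 8, 24 and 48 h, with 4.99%, 4.1% and 11.4% of all genes. That member was Fos, with -0.45 ± 0.14 (SE; BH-adjusted p = 0.0398) at 24 h and -0.55 ± 0.14 (SE; BH-adjusted p = 0.00542) at 48 h. The 48 h difference of Fos was lost in 1 of 26 other settings (adjusted p = 0.106). The 24 h difference of Fos was lost without any 1 of 8 libraries (IFN-gamma 24 h replicates 2 and 3, IFN-gamma 1 h replicates 1 and 4, untreated 24 h replicates 1 and 2, and untreated 1 h replicates 3 and 4; adjusted p = 0.0515 to 0.0827). For Fosl2 the difference at 8 h was 0.82 ± 0.33 (SE; BH-adjusted p = 0.114), and without untreated 8 h replicate 3 it was called, at 1.12 (adjusted p = 0.0194). For Jund the difference at 48 h was 0.28 ± 0.44 (SE; BH-adjusted p = 0.710). It ran from -0.89 to 1.33 over the other settings and was called in 1 of them (adjusted p = 0.0378).

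**Figure D3:**
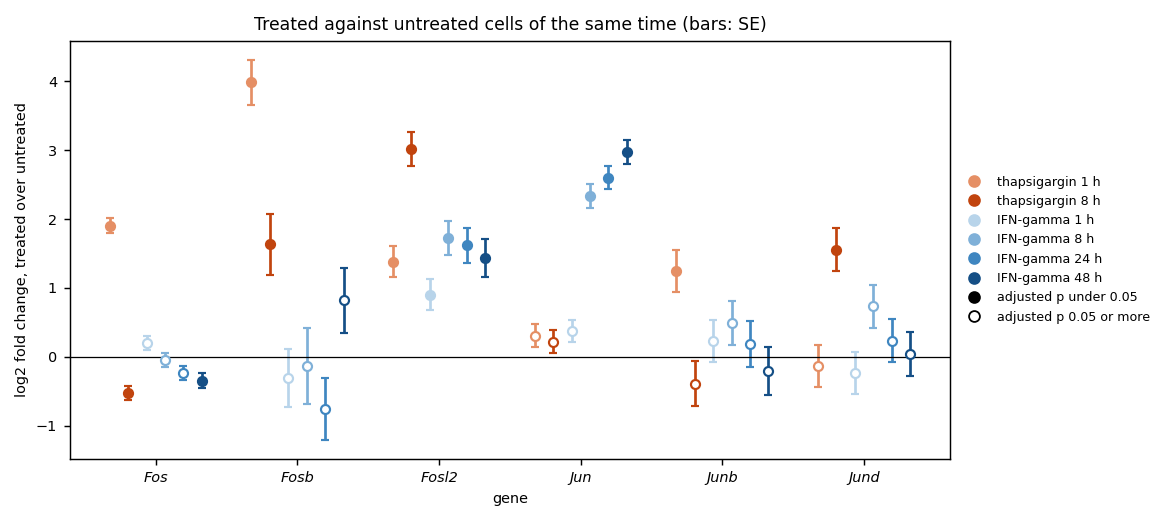
Log2 fold change of thapsigargin or IFN-gamma cells over untreated cells of the same time (vertical axis, ± SE) for the 6 members tested (horizontal axis); filled points have an adjusted p under 0.05. Thapsigargin points at 1 h are filled for Fos, Fosb, Fosl2 and Junb, and IFN-gamma points from 8 h on for Jun and Fosl2.

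Set directly against IFN-gamma at 1 h, thapsigargin cells had more Fos (1.70 ± 0.10 SE; BH-adjusted p = 1.07e-14), Fosb (4.30 ± 0.34 SE; BH-adjusted p = 1.14e-11) and Junb (1.01 ± 0.30 SE; BH-adjusted p = 0.0373). Thus 3 of 6 members were higher and 0 lower, where 4.36% of all genes were higher and 1.72% lower. Thapsigargin and IFN-gamma libraries overlapped for Junb, and its call was lost in 9 of 18 other settings, at an adjusted p of up to 0.250. Of these, 6 left out 1 library (thapsigargin replicates 1, 3 and 4 and IFN-gamma replicates 1, 2 and 3; adjusted p = 0.0517 to 0.185). Fosl2 had a log2 fold change of 0.48 ± 0.22 (SE; BH-adjusted p = 0.267), Jun of -0.07 ± 0.16 (SE; BH-adjusted p = 0.919) and Jund of 0.10 ± 0.31 (SE; BH-adjusted p = 0.938).

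At 8 h all 6 members differed between the treatments, 3 higher and 3 lower in thapsigargin cells, where 29.9% and 31.5% of all genes did. Jun was lower in thapsigargin cells, at 95.2 ± 18.6 CPM against 413 ± 42.9 CPM in IFN-gamma cells (SD, n = 4 each), with a difference of -2.12 ± 0.17 (SE; BH-adjusted p = 3.07e-13) on the log2 scale. Fosl2 was higher, at 55.4 ± 14.3 CPM against 22.7 ± 1.30 CPM (1.29 ± 0.22 SE; BH-adjusted p = 6.21e-06). Fosb was higher (1.76 ± 0.45 SE; BH-adjusted p = 9.67e-04) and Fos lower (-0.48 ± 0.10 SE; BH-adjusted p = 1.18e-04), each without overlap of thapsigargin and IFN-gamma libraries. Jund (0.82 ± 0.31 SE; BH-adjusted p = 0.0197) and Junb (-0.88 ± 0.33 SE; BH-adjusted p = 0.0195) overlapped between the treatments. The Jund call was lost without thapsigargin replicate 2 (adjusted p = 0.170) or IFN-gamma replicate 4 (adjusted p = 0.0756). The Junb call was lost without IFN-gamma replicate 1 or thapsigargin replicate 3 or 4 (adjusted p = 0.0560 to 0.0719), and among libraries of high Y-linked level the Fosb value was 1.26 (adjusted p = 0.117). Among library numbers from 21 on Jund (adjusted p = 0.296) and Fosb (adjusted p = 0.0788) were not called, and up to 20 Junb was not (adjusted p = 0.0884). The comparisons of thapsigargin cells with IFN-gamma and with untreated cells share the thapsigargin libraries.

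Untreated cells give the background against which these differences stand. Over 48 h in culture 5 of the 6 members fell below their level at 1 h, and all 5 had fallen at 8, 24 and 48 h. Of all genes, 2.16%, 14.4% and 30.4% were lower at 8, 24 and 48 h and 4.77%, 13.9% and 31.9% higher, and 0 members were higher. The median log2 fold change of the members was -0.98, -1.12 and -1.44, against -0.01, -0.01 and -0.0037 over all genes. The 3 comparisons share the 1 h libraries.

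Junb was lower than at 1 h at all 3 later times. Its mean at 1, 8, 24 and 48 h was 64.2 ± 25.98, 17.5 ± 2.502, 12.8 ± 2.82 and 11.1 ± 3.09 CPM (SD, n = 4), with log2 fold changes against 1 h of -1.88 ± 0.32 (SE; BH-adjusted p = 2.30e-04) at 8 h and -2.54 ± 0.33 (SE; BH-adjusted p = 7.82e-08) at 48 h. The 8 h libraries were already all below the 1 h libraries. Among library numbers from 21 on, where the 1 h level was lower, the 8 h value was -1.41 (adjusted p = 0.112) and the 48 h value -1.75 (adjusted p = 0.00240), against -3.20 (adjusted p = 1.78e-04) at 48 h up to number 20.

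Fosl2 was at 8.06, 5.24, 10.98 and 3.36 CPM at 8 h and 3.67, 2.67, 2.46 and 4.54 CPM at 48 h in untreated cells, against 13.9, 14.8, 14.7 and 14.97 CPM at 1 h. The log2 fold changes were -1.08 ± 0.25 (SE; BH-adjusted p = 0.00514) at 8 h and -2.14 ± 0.27 (SE; BH-adjusted p = 3.38e-08) at 48 h. Jun averaged 157 ± 27.7, 81.9 ± 10.02, 65.5 ± 8.13 and 43.5 ± 8.27 CPM at 1, 8, 24 and 48 h (SD, n = 4), with log2 fold changes of -0.94 ± 0.16 (SE; BH-adjusted p = 2.91e-04), -1.26 ± 0.17 (SE; BH-adjusted p = 1.88e-06) and -1.85 ± 0.17 (SE; BH-adjusted p = 3.03e-10) against 1 h. Successive times overlapped between 8 and 24 h and stood apart between 1 and 8 h and between 24 and 48 h. The 8 h fall was not called within both ranges of library numbers for Fosl2 (adjusted p = 0.0674 up to 20 and 0.208 from 21), and for Jun it was -0.71 (adjusted p = 0.0685) from 21 on.

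Fos fell less, with means of 163 ± 17.4, 124 ± 5.14, 102 ± 8.53 and 90.03 ± 3.47 CPM at 1, 8, 24 and 48 h (SD, n = 4). Its log2 fold changes were -0.40 ± 0.10 (SE; BH-adjusted p = 0.0127), -0.68 ± 0.10 (SE; BH-adjusted p = 1.40e-05) and -0.86 ± 0.10 (SE; BH-adjusted p = 1.54e-08). The 8 h call was lost without untreated 1 h replicate 1, at -0.32 (adjusted p = 0.0822), with the isoform table, at -0.34 (adjusted p = 0.0902), and in both ranges of library numbers (adjusted p = 0.0658 and 0.166).

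Jund was at 21.1 to 28.6, 16.1 to 29.5 and 16.2 to 38.3 CPM in untreated libraries at 8, 24 and 48 h, against 34.3 to 62.9 CPM at 1 h, with log2 fold changes of -0.995 ± 0.31 (SE; BH-adjusted p = 0.0462), -0.97 ± 0.31 (SE; BH-adjusted p = 0.0186) and -1.04 ± 0.31 (SE; BH-adjusted p = 0.00446). The 48 h libraries overlapped with those of 1 h. Its 8 h call was lost without any 1 of 7 libraries (untreated 1 h replicates 1, 2 and 3 and all of 8 h; adjusted p = 0.0593 to 0.162) and its 24 h call without untreated 1 h replicate 1 or 2 or 24 h replicate 3 (adjusted p = 0.0601 to 0.0763). From library number 21 on none of the 3 was called, with -0.32 (adjusted p = 0.465) at 48 h against -1.82 (adjusted p = 5.19e-04) up to 20.

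Fosb was at 0.262 to 0.307 CPM at 48 h and 0.136 to 1.17 CPM at 1 h in untreated libraries, and its log2 fold changes were -0.97 ± 0.47 (SE; BH-adjusted p = 0.219), -0.08 ± 0.41 (SE; BH-adjusted p = 0.906) and -0.92 ± 0.46 (SE; BH-adjusted p = 0.0816) at 8, 24 and 48 h. Without untreated 1 h replicate 2, the library with 3 Fosb reads, the 48 h value was called, at -1.24 (adjusted p = 0.0141).

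Ordered by mean CPM over the 10 groups, few neighbours differed beyond the range of their libraries. Neighbours in such an order are the groups closest in mean, which favours overlap for any gene. The counts below were not set against those of other genes and only describe the order. Of 9 neighbouring pairs per gene, 6 overlapped for Fos and Jun, 8 for Fosb, Fosl2 and Junb, and all 9 for Jund and Fosl1. Fos stood apart at thapsigargin 1 h above IFN-gamma 1 h (611 ± 144 and 188 ± 14.8 CPM), at untreated 1 h above untreated 8 h, and at thapsigargin 8 h above IFN-gamma 48 h (85.8 ± 5.62 and 70.9 ± 7.04 CPM), the last being its lowest group. Fosb stood apart only at thapsigargin 1 h above thapsigargin 8 h (8.66 ± 2.98 and 0.843 ± 0.293 CPM). For Jun the 3 later IFN-gamma groups were the highest and overlapped with one another, the 3 groups of 1 h followed, and untreated 48 h was the lowest. Fosl2 was highest in thapsigargin 8 h, and its 4 highest groups were all treated. Jund was also highest in thapsigargin 8 h, at 73.7 ± 32.1 CPM, next to untreated 1 h at 49.9 ± 13.1 CPM with overlapping libraries. Junb was lowest in IFN-gamma 48 h, at 9.50 ± 5.37 CPM, next to untreated 48 h at 11.1 ± 3.09 CPM.

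Across the 10 group means of log2 CPM the members fell into different patterns, given here as a description over groups that share culture times and libraries. Pearson's r was 0.93 between Fos and Junb, 0.81 between Fos and Fosb and 0.89 between Fosl2 and Jund. For Jun it lay between 0.05 with Fosb and 0.47 with Fosl2. Among 11767 genes whose log2 CPM averaged 1 or more, those most like Fos were Nr4a1 (0.94), Lcmt2 (0.93) and Klf6 (0.93), of which Nr4a1 and Klf6 are themselves immediate early transcription factors. Those most like Fosb were Zfp105 (0.92), Fam98b (0.91) and Arrdc3 (0.90), and those most like Junb were Polr3f (0.97), the ERK phosphatase gene Dusp5 (0.96) and the immediate early gene Egr1 (0.95). Fosl2 was nearest to Ccdc59 (0.99), Cox11 (0.95) and Nrip1 (0.95), and Jund to Zbtb2 (0.96), Snhg6 (0.95) and Gtpbp6 (0.94). Jun was nearest to 3 genes of glycan synthesis, Ext1 (0.97), B3gnt5 (0.97) and B3galt1 (0.96). With 10 points and 11767 genes, a high r is easily reached.

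Genes around the family were taken from 6 lists of general knowledge. Of 26 other immediate early genes, 24 were tested. At 1 h of thapsigargin 18 of these were higher and 0 lower (median log2 fold change 1.21, against -0.02 over all genes), where 6.61% of all genes were higher and 2.18% lower. The orphan receptor genes Nr4a1 and Nr4a2 and the zinc finger gene Egr1 were higher by 2.66 ± 0.15, 1.90 ± 0.20 and 1.94 ± 0.33 on the log2 scale (SE). At 8 h 7 were higher and 9 lower (median -0.31), where 29.6% of all genes were higher and 31% lower, with Egr2 at -3.52 ± 0.36, Egr1 at -2.84 ± 0.40 and Nr4a2 at 2.11 ± 0.21. Under IFN-gamma 3 were higher and 2 lower at 1 h, where 1.08% of all genes were higher and 0.211% lower. Zfp36 (1.77 ± 0.19), which encodes an RNA-binding protein that destabilises AU-rich messages, led the list, with Egr2 (1.47 ± 0.23) and Csrnp1 (1.39 ± 0.19). Of all genes, 13.1%, 12.6% and 16.9% were higher and 12.1%, 10.5% and 19.9% lower at 8, 24 and 48 h of IFN-gamma. Of the 24 listed genes tested, 8, 7 and 7 were higher and 5, 4 and 4 lower at these times. Egr2 and Csrnp1 were among the largest each time, with Egr2 at 2.48 ± 0.25, 2.89 ± 0.27 and 3.07 ± 0.32. In untreated cells 0 were higher and 10, 16 and 19 lower at 8, 24 and 48 h than at 1 h, with Klf4 at -5.11 ± 0.39 at 48 h. Of all genes, 4.77%, 13.9% and 31.9% were higher and 2.16%, 14.4% and 30.4% lower at these times.

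Of 14 genes of the ERK, JNK and p38 cascade, 0 were higher and 1 lower at 1 h of thapsigargin (Map2k2, an ERK kinase gene, at -0.28 ± 0.08), and 0 passed in either direction at 1 h of IFN-gamma. Of all genes 6.61% were higher and 2.18% lower at 1 h of thapsigargin, and 1.08% and 0.211% at 1 h of IFN-gamma. At 8 h of thapsigargin 5 were higher and 4 lower, a share near that of all genes (29.6% and 31%), among them Map2k6 (-3.66 ± 0.22) and Map3k1 (-1.48 ± 0.13), which act above p38 and JNK. At 8, 24 and 48 h of IFN-gamma 2, 3 and 4 were higher and 2, 0 and 2 lower. Of all genes, 13.1%, 12.6% and 16.9% were higher and 12.1%, 10.5% and 19.9% lower at these times. Map3k1 was at -0.65 ± 0.12 at 8 h, and Mapk10, the gene of the JNK of neural tissue, at 0.48 ± 0.07. Of 14 feedback inhibitors of the kinases, 5 were higher and 0 lower at 1 h of thapsigargin, led by the phosphatase genes Dusp1 (1.18 ± 0.20), Dusp10 (0.76 ± 0.14) and Dusp5 (0.69 ± 0.16), and 6 were higher and 4 lower at 8 h, against 29.6% and 31% of all genes, with Dusp14 (2.85 ± 0.20) and Spry1 (-1.95 ± 0.14) at the extremes. None passed at 1 h of IFN-gamma, and at 8, 24 and 48 h 3, 2 and 4 were higher and 2, 1 and 2 lower. The shares of all genes were those given above for IFN-gamma. Dusp10, whose product acts on JNK and p38, was higher by 1.41 ± 0.14 at 8 h and 1.19 ± 0.15 at 24 h. In untreated cells 0 were higher and 4, 12 and 11 lower at 8, 24 and 48 h than at 1 h. Of all genes, 4.77%, 13.9% and 31.9% were higher and 2.16%, 14.4% and 30.4% lower at these times.

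SRF, its partners and the CRE-binding factors, which act on the promoters of Fos and other immediate early genes, form a list of 8. At 1 h of thapsigargin 2 were higher, Srf (0.30 ± 0.06) and Creb1 (0.25 ± 0.05), and 0 lower, against 6.61% and 2.18% of all genes. Crem, which encodes both activators and repressors of CREs, was at 50.9 ± 8.58 against 11.2 ± 1.64 CPM in thapsigargin and untreated cells at 8 h (2.18 ± 0.16). In IFN-gamma and untreated cells at 8 h it was at 111 ± 5.12 against 11.2 ± 1.64 CPM (3.30 ± 0.17), and it was higher in IFN-gamma cells at 24 h (2.69 ± 0.17) and 48 h (2.41 ± 0.17) as well. In counts, 5 of the 8 were higher and 1 lower at 8 h of thapsigargin, where 29.6% and 31% of all genes were. At 1, 8, 24 and 48 h of IFN-gamma 1, 2, 3 and 1 were higher and 0, 1, 1 and 1 lower. Of all genes, 1.08%, 13.1%, 12.6% and 16.9% were higher and 0.211%, 12.1%, 10.5% and 19.9% lower at these times.

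Other basic leucine zipper genes, whose proteins can pair with Jun or Fos proteins, were tested for 11 of 12. At 1 h of thapsigargin 2 were higher, Atf3 (2.23 ± 0.33) and Maff (0.80 ± 0.19), and 0 lower, against 6.61% and 2.18% of all genes. At 8 h 6 were higher and 0 lower, where 29.6% and 31% of all genes were. Atf3, a stress-induced repressor that pairs with Jun proteins, was then at 56.5 ± 7.88 against 0.492 ± 0.133 CPM in thapsigargin and untreated cells (6.81 ± 0.37), Jdp2 at 96.1 ± 5.10 against 10.7 ± 1.205 CPM (3.16 ± 0.11) and Mafg at 153 ± 6.27 against 60.7 ± 2.71 CPM (1.33 ± 0.08). Under IFN-gamma 2, 7, 7 and 6 were higher and 0, 0, 0 and 2 lower at 1, 8, 24 and 48 h. Of all genes, 1.08%, 13.1%, 12.6% and 16.9% were higher and 0.211%, 12.1%, 10.5% and 19.9% lower at these times. Atf3 was higher by 4.31 ± 0.38 and Maff by 1.49 ± 0.20 at 8 h.

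Of 20 genes known from other systems as AP-1 targets, 13 were tested. None passed at 1 h of thapsigargin or of IFN-gamma, where the medians were 0.02 and 0.10. Of all genes, 6.61% were higher and 2.18% lower at 1 h of thapsigargin, and 1.08% and 0.211% at 1 h of IFN-gamma. At 8 h of thapsigargin 7 were higher and 4 lower (median 1.44), where 29.6% of all genes were higher and 31% lower. These included Vegfa, at 345 ± 28.1 against 3.17 ± 0.993 CPM in thapsigargin and untreated cells (6.72 ± 0.42), Hmox1 (1.85 ± 0.11) and Mt2 (1.56 ± 0.28), which other stress factors also control. At 8 h of IFN-gamma 6 were higher and 1 lower, with the metallothionein gene Mt2 (2.04 ± 0.27), the adhesion receptor gene Cd44 (1.22 ± 0.26) and the protease inhibitor gene Timp1 (1.21 ± 0.27) highest among those whose log2 CPM averaged 1 or more. At 24 h 2 were higher and 1 lower, and at 48 h 4 were higher and 5 lower. Of all genes, 13.1%, 12.6% and 16.9% were higher and 12.1%, 10.5% and 19.9% lower at 8, 24 and 48 h of IFN-gamma. In untreated cells 0, 0 and 3 were higher and 0, 6 and 6 lower at 8, 24 and 48 h than at 1 h. Of all genes, 4.77%, 13.9% and 31.9% were higher and 2.16%, 14.4% and 30.4% lower at these times. The cyclin D1 gene Ccnd1 fell to 262 ± 91.3 CPM at 48 h, against 1471 ± 66.7 CPM at 1 h.

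**Figure D4:**
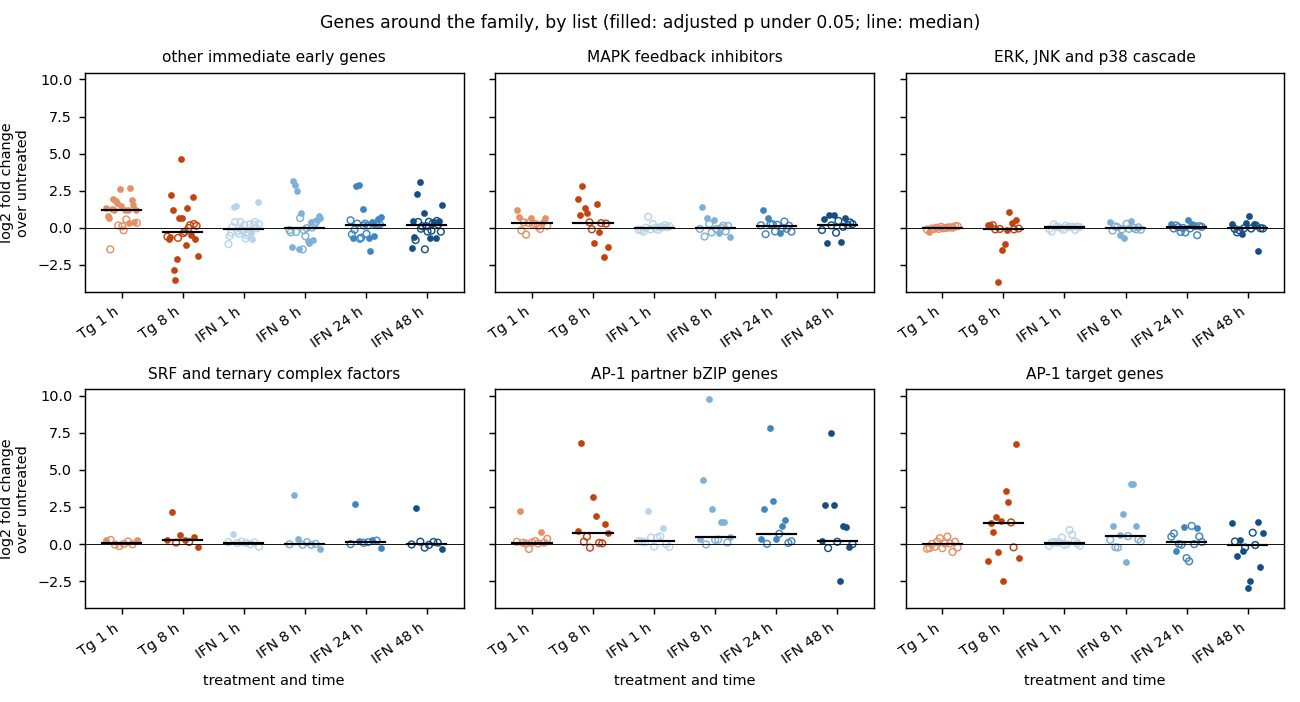
Log2 fold change over untreated cells of the same time (vertical axis) for each tested gene of 6 lists (panels), by treatment and time (horizontal axis; Tg is thapsigargin, IFN is IFN-gamma); filled points have an adjusted p under 0.05 and lines are list medians. At 1 h of thapsigargin the median is 1.21 for other immediate early genes and 0.01 for the kinase cascade.

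The annotated transcripts of Fosb include a full-length one, Fosb-201, and a shorter one, Fosb-206. The Fosb-206 product of 237 residues stops before the end of the 338-residue protein. In the deposited isoform table thapsigargin cells at 1 h held 151, 142, 261 and 166 estimated Fosb counts per library. The full-length Fosb-201 took 133, 117, 231 and 143 of these and Fosb-206 8.27, 7.89, 7.28 and 10.97. Fosb-204, which has no coding sequence, took 9.45, 17.2, 13.2 and 11.7, more than Fosb-206 in each library. The short form was thus 5.11 ± 1.63% of Fosb counts (SD, n = 4), and 15.6 ± 4.57% when counts were set per transcript length. Fosb-206 is annotated with 1090 bases and Fosb-201 with 3782. The share thus depends on how reads were assigned between these models, and is not a measured splice ratio. Untreated cells at 1 h held 38, 10, 8 and 11 estimated counts, too few in 3 of 4 libraries for the minimum of 20, so no comparison of the shares could be tested.

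Fosl1, which encodes Fra-1, had 0 to 9 reads per library in the gene table. It had 8, 6, 6 and 4 reads in the thapsigargin libraries at 8 h, against 5, 2, 0 and 0 in untreated libraries, and 0, 1, 0 and 0 in IFN-gamma libraries at 48 h, against 0, 0, 0 and 1 in untreated ones. With no filter on low counts its log2 fold change at 8 h of thapsigargin was 1.81 ± 0.72 (SE; BH-adjusted p = 0.0654). In the isoform table it had 24 to 87 estimated counts per library, and the log2 fold change was -0.57 ± 0.18 (SE; BH-adjusted p = 0.0103), in the other direction. At 48 h against 1 h in untreated cells it was -3.70 ± 0.92 (SE; BH-adjusted p = 0.00148) in the gene table and -0.40 ± 0.18 (SE; BH-adjusted p = 0.0664) in the isoform table. By GENCODE M21, 1163 of the 2033 exon bases of Fosl1 overlap Ccdc85b on the opposite strand. Jund shares 877 of 1668 with Gm11175, Jun 232 with Junos and Junb 173 with Prdx2, likewise on the opposite strand. Whether counting used the strand is not given in the sources used here. Reads on shared bases may thus have been added to the 4 members or left out of them. The levels and family shares of these 4 members may be affected, and the direction of Fosl1 is uncertain.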

How the data were processed

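Bulk RNA-seq was made by the authors from 40 libraries. Per the submitters' processing notes the tools were STAR, featureCounts, kallisto and edgeR, with neither versions nor roles. Build and strand setting: not given in the sources used here. The deposited gene table holds raw counts, and the deposited isoform table holds estimated counts of transcripts. For the setting that used the isoform table, these estimates were summed per gene and rounded in the re-analysis. Of 39056 identifiers 38872 matched a GENCODE M21 symbol. The members and gene lists were chosen with earlier results of these data known.

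Genes were filtered with filterByExpr and scaled by TMM, and 1 mean per group was fitted to all 40 libraries in edgeR 4.0.16 (R 4.3.3; estimateDisp, glmQLFit, glmQLFTest; 30 residual degrees of freedom; prior count 0.125). Calls are at a Benjamini-Hochberg adjusted p under 0.05 over the 15135 genes tested, and the SE is the log2 fold change divided by the root of F. The median log2 fold change of all genes lay between -0.031 and 0.0034. Totals of 13165483 to 22651092 reads limit Fosb and Fosl1. Replicates of 1 group differed beyond counting noise (the closest pair by a chi-square of 5.465 per degree of freedom). Fits were tested on simulated counts.

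Other settings were RLE size factors, DESeq2 1.42.0, no low-count filter, only the groups compared, the range of library numbers as a block or each range alone, the isoform table, the Y-linked level as a covariate, leaving out each replicate and, added after seeing the data, only libraries of high Y-linked level. Named genes are all members, the 3 genes most like each in group-mean log2(CPM + 0.125), up to 3 called genes of each list with the largest fold change and an average log2 CPM of 1 or more, and Irf1, Ddit3 and Hspa5; some results under this rule are not reported here. The test of Fosb isoform shares could not be run.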

Additional observations from a re-analysis of the deposited data

Results flagged for a closer look

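In 70 groups of 4 libraries the gap of 1 library to the next was checked against the range of its group, and 7 libraries stood apart; chance gives about 1 in 20. Of these, 4 concern Fosl1 at 0 to 5 reads: IFN-gamma 24 h replicate 3 (0.0938 CPM), IFN-gamma 48 h replicate 2 (0.0475 CPM), untreated 24 h replicate 4 (0.212 CPM) and untreated 48 h replicate 4 (0.0721 CPM). For Jun, IFN-gamma 1 h replicate 4 was high at 267 CPM, against 179 to 188 CPM in the others of its group, and untreated 48 h replicate 1 was low at 31.1 CPM, against 47.2 to 47.9 CPM. For Junb, IFN-gamma 48 h replicate 1 was high at 17.5 CPM, against 6.21 to 7.32 CPM.

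The effect of a treatment differed between times by the interaction test in 10 cases. For thapsigargin, 8 h against 1 h, the differences of log2 effects were 1.63 for Fosl2 and 1.70 for Jund, and -2.36 for Fosb, -1.64 for Junb and -2.43 for Fos. For IFN-gamma against its effect at 1 h they were 1.96 at 8 h, 2.23 at 24 h and 2.60 at 48 h for Jun, and -0.45 at 24 h and -0.55 at 48 h for Fos. Each was tested with edgeR over 30 residual degrees of freedom, and what underlies them was not tested.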

How the results depend on the processing

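Of 1802 member values recomputed under another setting, 1715 kept their call or lack of one, 75 lost a call and 12 gained one; no called value changed sign. RLE size factors and the block of library number ranges moved no call. DESeq2 moved none of the 89 values it gave, but gave no adjusted p for Fosb at 1 h of thapsigargin, so it called 3 members there against 4. The number of members called moved by over 1.5 times as follows, and the cause was not tested. IFN-gamma at 1 h (1 member) gave 0 in library numbers 1 to 20, in 21 to 40, with the Y-linked covariate and in libraries of high Y-linked level. IFN-gamma at 8 h (2) gave 4 with only the groups compared. Untreated 8 h against 1 h (5) gave 3 in numbers 1 to 20, 0 in 21 to 40 and 3 with the isoform table. The IFN-gamma effect at 8 h against 1 h (1) gave 3 with only the groups compared, and that at 24 h (2) gave 1 with no low-count filter, in either range of numbers, with the isoform table and in libraries of high Y-linked level. The thapsigargin effect at 8 h against 1 h (5) gave 3 in either range. Leaving out 1 replicate gave 0 to 1 member for IFN-gamma at 1 h, 3 to 5 for untreated 8 h, 1 to 2 for the IFN-gamma effects at 8 and 24 h, and 4.61 to 5.88% for the share of the short Fosb form, which was 15.6% per transcript length against 5.11%. The labels give no replicate number, so replicates are numbered here in the order of library numbers, and no paired analysis was made. Y-linked levels recurred over time, at 0.4688 to 0.9645 CPM in IFN-gamma replicate 3 and 208 to 243 CPM in replicate 4. Whether times share a source was not tested, and the tests over time took the libraries as independent. Reads limit Fosb outside thapsigargin 1 h, and Fosl1 everywhere in the gene table.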
